A study of Homo sapiens with 14 samples.

Results

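The KMT2D peaks of chromosomes 13 and 18 were taken as all entries of the peak list that lie on these chromosomes. They numbered 358 of the 13808 peaks in the list (2.59%), with 232 on chromosome 13 and 126 on chromosome 18. The pair was chosen by measured values, as the autosomes with the fewest peaks per Mb in this same list, so their low density is given as a description, with no test. The other 20 autosomes carried 12631 peaks and were used only for comparison.

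The peaks came from 1 chromatin immunoprecipitation sequencing (ChIP-seq) library of SCC23, an established line of head and neck squamous cell carcinoma (HNSCC). The cells were KMT2D wild type (KMT2D-WT), the label gives a low glucose condition, and the antibody was raised against KMT2D. The authors describe glucose deprivation for the KMT2D library as well as for the histone libraries. Cells for the histone libraries were deprived for 6 h, while the label of the KMT2D library gives no duration. The series holds 14 samples, which also cover an input and histone antibodies in KMT2D-WT and KMT2D-KO cells, and only the KMT2D library was analysed. It had no replicate, so every interval given here covers counting error only, and no difference was tested across libraries.

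KMT2D is a histone methyltransferase that places methyl groups on lysine 4 of histone H3, mainly at enhancers, the regulatory sequences that raise transcription of genes from a distance. Peaks of its ChIP-seq signal are stretches of chromatin that were called as enriched for the protein. The calls used a p-value threshold, and the series holds no KMT2D library of KMT2D-KO cells to set beside them. Chromosomes 13 and 18 are among the human autosomes with the lowest gene density. Chromosome 13 is acrocentric, meaning that its short arm is almost entirely repeats absent from the genome assembly, whereas chromosome 18 has a small short arm and a larger long arm that are both assembled.

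Chromosome 18 had the lowest peak density of the 22 autosomes and chromosome 13 the next lowest. Density was counted per Mb between the outermost peaks of a chromosome, a span of 74.8 Mb for chromosome 18 and 95.9 Mb for chromosome 13. It was 1.68 peaks per Mb on chromosome 18 (95% Poisson interval 1.403 to 2.01) and 2.42 on chromosome 13 (2.12 to 2.75). The next values in the order were 2.65 on chromosome 4 (2.42 to 2.89) and 3.30 on chromosome 21 (2.74 to 3.93). The intervals of chromosomes 13 and 4 overlapped. The order itself was what chose the pair, so nothing is read from the distance to the other autosomes. The median of the other 20 autosomes was 4.69 peaks per Mb, and chromosome 17 was highest at 10.8.

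**Figure D1:**
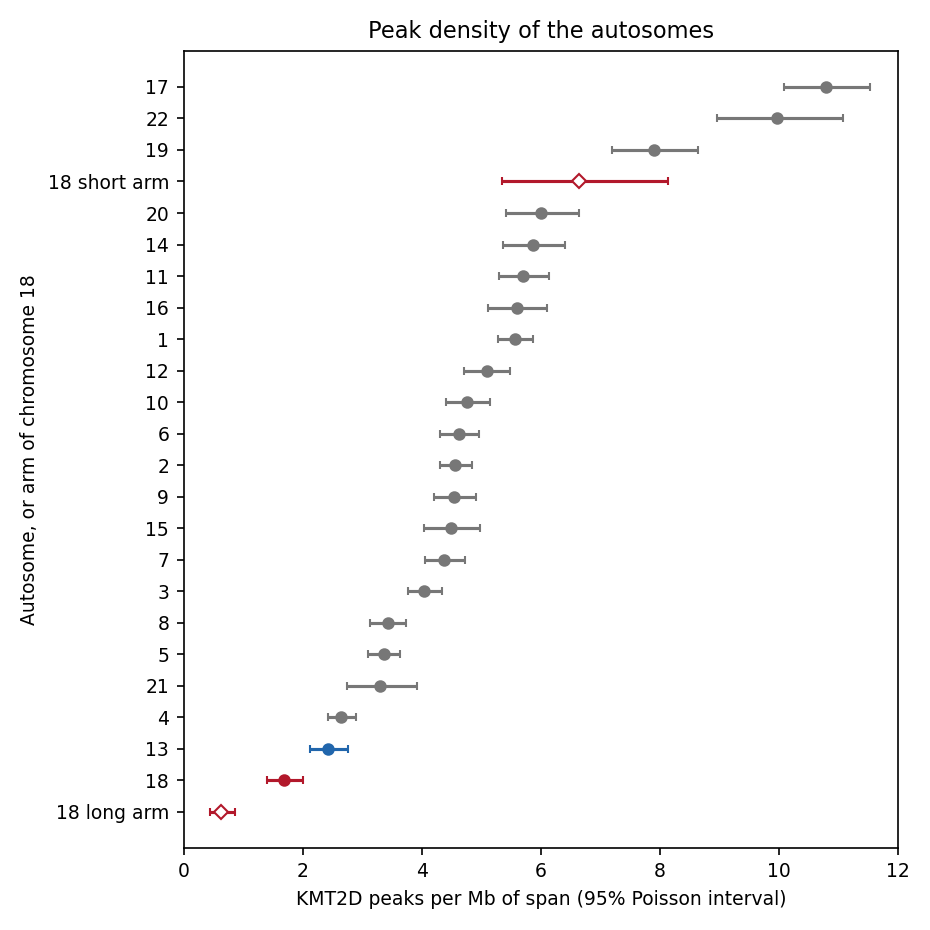
KMT2D peaks per Mb of span (x axis, with 95% Poisson intervals as bars) for the 22 autosomes in order of density (y axis, filled circles) and for both arms of chromosome 18 (open diamonds). Chromosomes 18 and 13 are the lowest autosomes at 1.68 and 2.42 peaks per Mb, and the arms of chromosome 18 lie far apart at 6.63 and 0.622.

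Together the chromosomes carried 2.76% of the autosomal peaks (95% Wilson interval 2.49 to 3.05%) on 6.16% of the autosomal span. Their pooled density was 2.10 peaks per Mb against 4.86 on the other 20 autosomes, a ratio of 0.432 (95% interval 0.388 to 0.480, exact for the ratio of counts). A low ratio follows from the choice of the pair, and the same peaks were split by q-value only to describe it. Among peaks with a q-value of at most 0.01, the ratio was 0.406 (0.345 to 0.475, 162 peaks on the chromosomes), and among those with a q-value above 0.05 it was 0.434 (0.366 to 0.511, 148 peaks). The 48 peaks between these limits gave 0.539 (0.396 to 0.719). The 3 intervals overlapped.

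Peaks were spread unevenly along chromosome 13. In bins of 5 Mb, the first bin with a peak, 15 to 20 Mb, held 1, and the bins from 20 to 40 Mb held 12, 6, 16 and 6 peaks in order. The bins at 40 to 45 Mb and 45 to 50 Mb held 27 and 25, followed by 14 at 50 to 55 Mb. Across this proximal block, peaks occurred in every bin. The bins from 55 to 70 Mb then held 0, 2 and 4 peaks, those from 70 to 80 Mb held 19 and 7, and those from 80 to 95 Mb held 2, 0 and 5. Density rose again towards the end of the long arm, with 19, 9 and 19 peaks in the bins from 95 to 110 Mb. The last bin, 110 to 115 Mb, was the fullest of the chromosome at 39 peaks. The 3 fullest bins held 91 peaks, or 39.2% of the chromosome.

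Chromosome 18 had a different layout, with most of its peaks at 1 end. The bins at 0 to 5 Mb and 5 to 10 Mb held 34 peaks each and the bin at 10 to 15 Mb held 23. These 3 bins together held 91 peaks, or 72.2% of the chromosome. Every other bin of chromosome 18 held between 0 and 6 peaks. In order from 15 to 45 Mb they held 6, 6, 5, 0, 1 and 2 peaks, and from 45 to 75 Mb they held 5, 0, 4, 2, 1 and 3.

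The bins of both chromosomes were poorer than those of the other autosomes, as the choice of the chromosomes requires. The median bin held 8 peaks on chromosome 13 and 4 on chromosome 18, against 18 on the other autosomes (interquartile range 8 to 33 over 535 bins). At most 6 peaks lay in 45% of the bins of chromosome 13 and in 80% of those of chromosome 18, against 20% elsewhere. At most 1 peak lay in 7 of the 35 bins of the pair, against 31 of 535 elsewhere (5.79%). At the other end, 17.1% of the bins of the pair held 20 peaks or more, against 46.2% elsewhere.

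**Figure D2:**
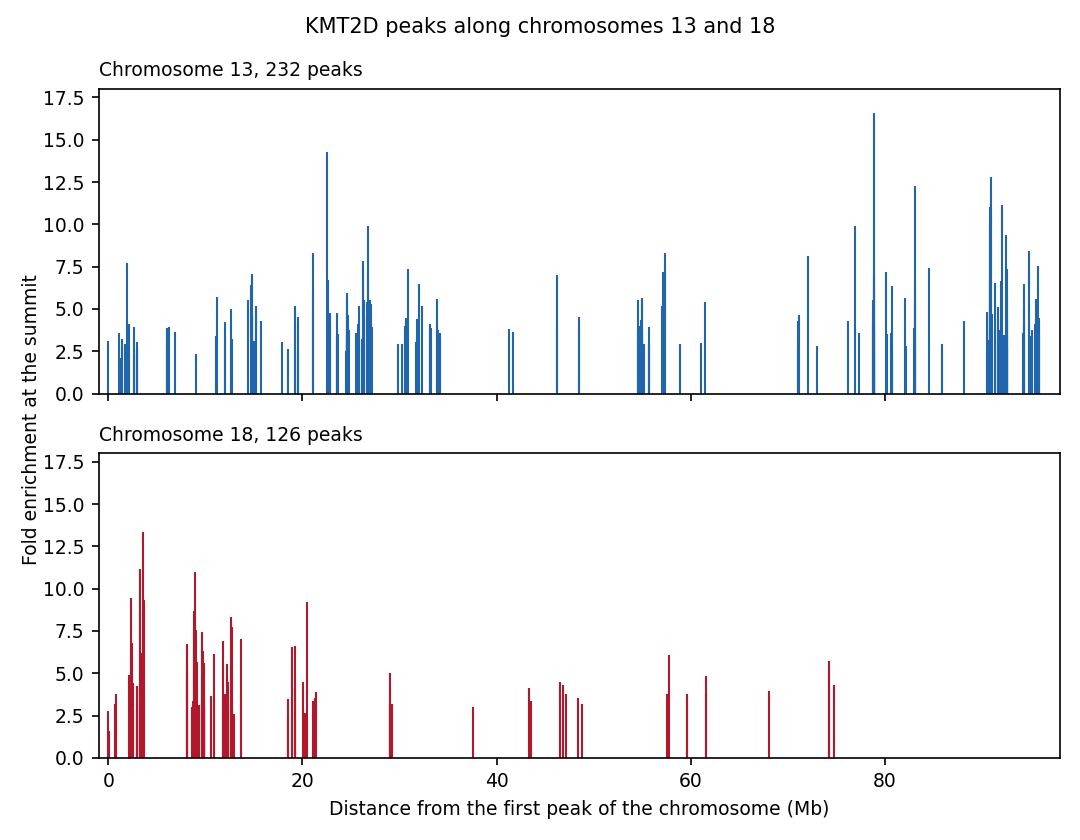
Fold enrichment at the summit (y axis) of each of the 232 peaks of chromosome 13 (upper panel) and the 126 peaks of chromosome 18 (lower panel) against the distance from the first peak of the chromosome in Mb (x axis). Peaks of chromosome 13 form several groups with the highest fold enrichment at 16.6, whereas 91 of the peaks of chromosome 18 lie in its first 15 Mb.

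The contrast within chromosome 18 followed its arms. The stretch without peaks from 13726760 to 18511613 (4.78 Mb) was used to divide the chromosome after its values were seen. That it spans the centromere is textbook knowledge and was not read from an annotation, and every value of an arm rests on it. The short arm carried 91 peaks over 13.7 Mb, or 6.63 per Mb (95% Poisson interval 5.34 to 8.15). The long arm carried 35 peaks over 56.3 Mb, or 0.622 per Mb (0.433 to 0.865). The short arm thus held 72.2% of the peaks on 18.3% of the span, and the ratio of the densities was 10.7 (95% interval 7.15 to 16.2). Only chromosomes 17, 22 and 19 had a higher density than the short arm of chromosome 18, but the spans are unlike. The span of the arm leaves out the 4.78 Mb stretch, while whole chromosomes keep their longest stretches without peaks, such as 6.24 Mb on chromosome 20. The rank of the arm among them is therefore not read further. Its wide interval overlapped those of several autosomes, chromosomes 19 and 20 among them. For scale, chromosome X had 0.948 peaks per Mb (0.801 to 1.11), and this interval overlapped that of the long arm.

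The ratio between the arms depended little on which peaks were counted. With peaks of a q-value of at most 0.05 alone, 54 peaks of the short arm (3.94 per Mb) stood against 19 of the long arm (0.338 per Mb), a ratio of 11.7 (6.80 to 20.8). The low density of chromosome 18 was therefore that of its long arm. Without that arm, the pooled ratio of both chromosomes to the other autosomes was 0.607.

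For description, a window of the length of the long arm, 56.3 Mb, was slid along the 18 other autosomes that were long enough. Chromosome 18 was chosen for its low density, and the length was taken from its sparse arm after the values were seen. A poorer window on chromosome 18 was therefore largely set by the choice, and nothing is concluded from it. The fewest peaks in any such window were 76 on chromosome 4 and 81 on chromosome 3, and the median over the 18 autosomes was 187. On chromosome 13 the poorest window of this length held 68 peaks. The poorest on chromosome 18 held 32, and it included the centromere. At a length of 20 Mb the pair no longer stood apart. The poorest window held 6 peaks on each of chromosomes 13 and 18, against 6 on chromosome 21 and 5 on chromosome 3. It held 0 on chromosomes 1 and 9, where it was not tested whether reads can be mapped to the window.

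Stretches without any peak took up most of both chromosomes. Stretches of at least 1 Mb numbered 26 on chromosome 13 and covered 71.6% of its span. On chromosome 18 there were 13, covering 82.6%. The other autosomes gave 54.5% when pooled, from 30.7% on chromosome 17 to 71.8% on chromosome 8, so that chromosome 18 lay above this range and chromosome 13 just inside it. Counting only stretches of at least 5 Mb set chromosome 18 further apart from chromosome 13. They took up 57.8% of chromosome 18, with 6 stretches, and 23.8% of chromosome 13, with 3 stretches, against 11.3% on the other autosomes pooled. Chromosome 13 was not outside the range of single autosomes in this. Chromosome 21 had 2 such stretches, the longest of 8.57 Mb, on a span of 37.9 Mb, a larger share than on chromosome 13. No other autosome had more than 5 such stretches.

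**Figure D3:**
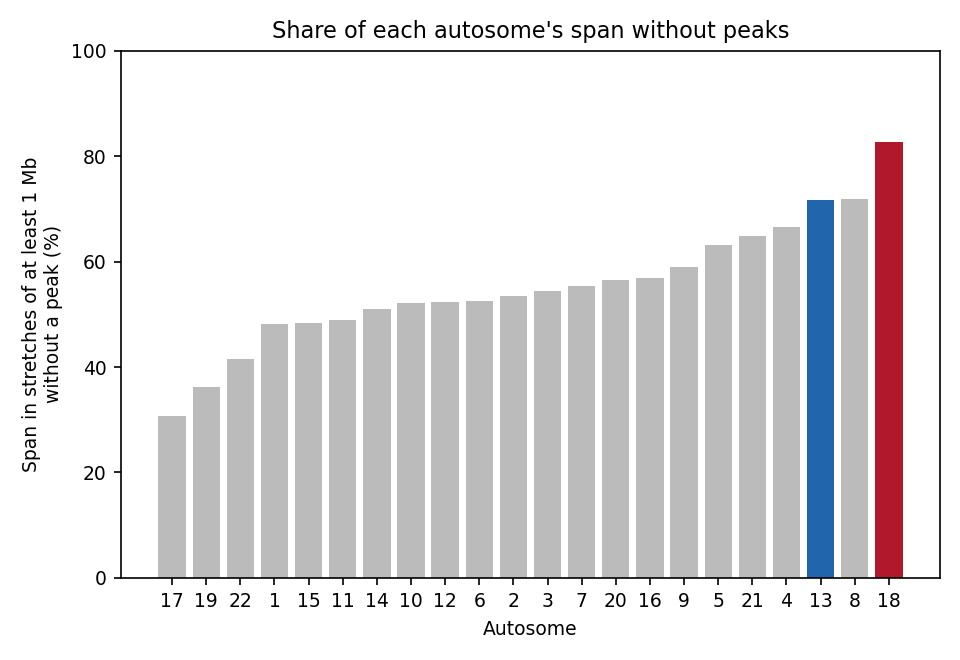
Percent of the span of each autosome (bars, y axis) that lies in stretches of at least 1 Mb without a KMT2D peak, with the autosomes in rising order (x axis). Chromosome 18 is highest at 82.6%, and chromosome 13 at 71.6% stands next to chromosome 8 at 71.8%.

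The longest stretch of chromosome 13 ran from 80511093 to 90108097 (9.60 Mb). It was followed by 53226753 to 60351504 (7.12 Mb) and 67508509 to 73630163 (6.12 Mb). The fourth and the fifth were 60737464 to 65249339 (4.51 Mb) and 92001654 to 95201578 (3.20 Mb). All of these lay in the middle of the long arm, between the peak-rich blocks described above. On chromosome 18 the longest were 48848414 to 57585750 (8.74 Mb) and 29229158 to 37526640 (8.30 Mb). The next were 21453010 to 29034099 (7.58 Mb), 61550225 to 68025001 (6.47 Mb) and 68025528 to 74271361 (6.25 Mb). All 5 lay on the long arm, and the last 2 were parted by a single peak. The longest stretches of the other autosomes ranged from 3.35 Mb on chromosome 22 to 22.6 Mb on chromosome 9, with a median of 6.82 Mb. The single longest stretches of chromosomes 13 and 18 lay inside this range. Whether reads can be mapped to the longest stretches of the others was not tested.

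Although peaks were fewer, those called had fold enrichment close to that on the other autosomes. All peaks of the list passed the same p-value threshold, which limits how far such medians can differ between chromosomes. Fold enrichment is the ChIP signal at the summit divided by the local background. Its median was 4.01 on chromosome 13 and 3.85 on chromosome 18, and over both it was 3.93 (95% interval for a median 3.76 to 4.11). The medians of the other autosomes lay between 3.80 and 4.31, and their pooled median was 4.03. The median number of ChIP fragments at the summit was 25 on chromosome 13, on chromosome 18 and on the other autosomes pooled. On chromosome 13, 137 peaks (59.1%) had a q-value of 0.05 or lower, as did 73 on chromosome 18 (57.9%). Together these were 210 peaks (58.7%, 95% Wilson interval 53.5 to 63.6%), against 58.9% on the other autosomes.

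The strongest peaks of the list made up a somewhat smaller share than elsewhere, but the intervals included the share of the other autosomes. Of the 1000 peaks of highest fold enrichment in the list, 11 lay on chromosome 13 and 8 on chromosome 18. They made up 5.31% of the peaks of the pair (95% Wilson interval 3.42 to 8.14%), against 7.75% on the other autosomes. By chromosome the share was 4.74% on chromosome 13 (2.67 to 8.29%) and 6.35% on chromosome 18 (3.25 to 12.03%). The highest fold enrichment on chromosome 18, 13.4, was the lowest maximum of the 22 autosomes, and the maxima of the 20 others lay between 15.4 and 26.9.

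On chromosome 13 the strongest peak lay at 97908460 to 97909082, with a fold enrichment of 16.6 and 89 fragments over its summit. It ranked 43 in the whole list. The next, at 41567997 to 41569073, had a fold enrichment of 14.3 and 76 fragments. Further peaks were at 109917103 to 109917966 (fold enrichment 12.8), 102108119 to 102108851 (12.3), 111100125 to 111101080 (11.1) and 109799389 to 109799897 (11.0). The last of the 10 were at 109909122 to 109909950 (10.6), 109808474 to 109809355 (9.98), 95908404 to 95908792 (9.92) and 45780454 to 45781071 (9.90). Of these 10 peaks, 8 lay beyond 95 Mb, in the distal part of the chromosome. None of the 10 had a local background above 1.83 times the genome-wide level.

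On chromosome 18 the strongest peak lay at 3623461 to 3625889 on the short arm. It had a fold enrichment of 13.4 and 84 fragments, was 2429 bp wide and ranked 165 in the list. It was followed by peaks at 3261613 to 3262677 (fold enrichment 11.1), 8890616 to 8891418 (11.0), 2302502 to 2303539 (9.44) and 3652319 to 3653237 (9.35). The next was at 20493757 to 20494085 (9.20), the only one of the 10 on the long arm. The others were at 8882824 to 8883461 (8.70), 3247146 to 3248259 (8.62), 12597752 to 12598812 (8.30) and 12741312 to 12741690 (7.73). Under these 10 peaks the local background reached 2.68 times the genome-wide level, at the peak that starts at 3652319.

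Enhancers often lie in groups, and peaks were therefore stitched over gaps of up to 12.5 kb into clusters of at least 3 peaks. Chromosome 13 had 15 clusters with 61 peaks (26.3%) and chromosome 18 had 11 clusters with 37 peaks (29.4%). Together 98 peaks lay in clusters (27.4%, 95% Wilson interval 23.01 to 32.2%), against 33.9% on the other autosomes, where the share ranged from 22.4% on chromosome 15 to 48.9% on chromosome 22. A fixed gap joins fewer peaks where peaks are sparse, so the share is not independent of the density by which the chromosomes were chosen. The fullest cluster of chromosome 13 had 8 peaks at 109799389 to 109810108, with fold enrichment from 2.99 to 11.0. Clusters of 5 peaks came next, and among these the highest fold enrichment was found at 97907052 to 97912487, which included the strongest peak of the chromosome, and at 109909122 to 109923403. On chromosome 18 the fullest clusters were on the short arm, with 5 peaks at 3593724 to 3606372, 4 at 8106659 to 8125629 and 4 at 3003945 to 3015560. Fold enrichment in these reached 5.41, 6.73 and 4.27.

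Few peaks of chromosome 13 were wide, and the wide peaks found on chromosome 18 lay on the short arm. Peaks wider than 1000 bp numbered 4 on chromosome 13 (1.72%, 95% Wilson interval 0.672 to 4.35%), against 5.72% on the other autosomes. The share was the lowest of the 22 autosomes. Its interval overlapped those of several autosomes, chromosomes 21 and 4 (2.77%, 1.66 to 4.60%) among them. It did not overlap those of others, such as chromosomes 1 and 19, and the rank is not read further. On chromosome 18 there were 9 such wide peaks (7.14%, 3.80 to 13.02%), all on the short arm. With 0 of 35 peaks, the long arm allows a share of up to 9.89% (upper Wilson bound). The share on the short arm was also 9.89% (5.29 to 17.7%), so the arms cannot be told apart in this. The median peak was 379 bp wide with 29 fragments over the summit on the short arm, and 258 bp wide with 21 fragments on the long arm. Median fold enrichment was nearly the same in both arms, 3.89 and 3.76.

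The local background rebuilt from fold enrichment and p-value also differed between the arms of chromosome 18. This background is the signal that MACS2 expected at the summit from the control, on the scale of control fragments to which the ChIP signal was brought. Where the control is thin it is set to a genome-wide level, which corresponded to 2.88 ChIP fragments here. On the short arm 10 of 91 peaks stood at this level (11.0%, 95% Wilson interval 6.08 to 19.1%), and on the long arm 28 of 35 did (80.0%, 64.1 to 90.0%). The share was 30.2% on chromosome 13 and also on chromosome 18 as a whole, and 36.9% on the other autosomes, where it ranged from 16.6% on chromosome 14 to 61.6% on chromosome 21. The median background was 1.54 times the genome-wide level on the short arm, 1.00 on the long arm and 1.14 on chromosome 13. The medians of the other autosomes lay between 1.00 and 1.37.

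All 7 peaks of the long arm that stood above the genome-wide level lay in its first stretch, between 18511614 and 21453009. From 29034100 to 74801535 every peak stood at the level, 23 in a row over 45.8 Mb. This was the longest such run in the list of autosomes. On chromosome 13 the longest run had 10 peaks over 0.877 Mb, at 114017801 to 114894667. On the other autosomes the longest runs had from 5 to 21 peaks (median 9.5), and none of these runs was longer than 9.41 Mb. In peak number the 23 were close to the 21 of chromosome 1. A run covers more Mb where peaks are sparse, so its length is not independent of the density by which the chromosomes were chosen. The 23 peaks had fold enrichment from 3.02 to 6.11 (median 3.75), 14 to 31 fragments over the summit and widths of 183 to 526 bp, and 11 of them reached a q-value of at most 0.05. The strongest lay at 57720914 to 57721362, with a fold enrichment of 6.11 and 31 fragments.

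**Figure D4:**
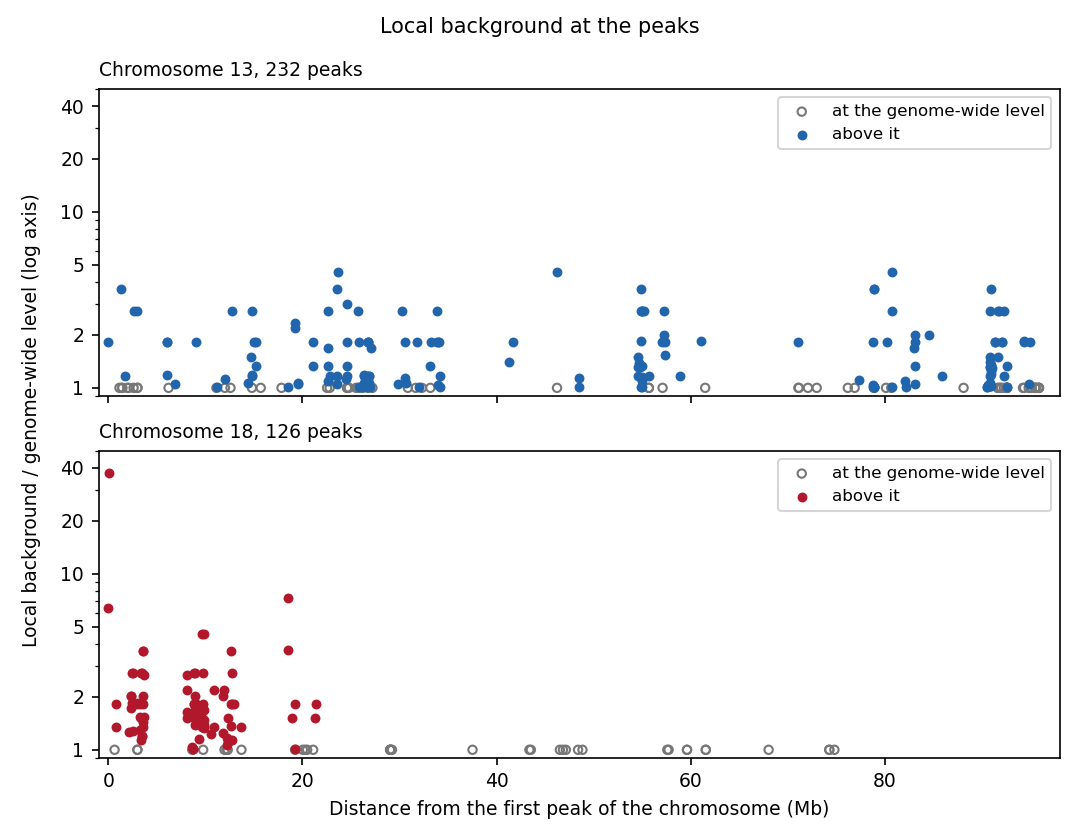
Local background at the summit relative to the genome-wide level (y axis, log scale) of the peaks of chromosome 13 (upper panel) and chromosome 18 (lower panel) against the distance from the first peak in Mb (x axis), with open circles for peaks at the genome-wide level and filled circles for those above it. On chromosome 18 the filled circles end before 25 Mb, and the 23 peaks that follow are all open, whereas on chromosome 13 both kinds occur along the whole chromosome.

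A background called raised, meaning 2 times the genome-wide level or more, was found at 33 peaks of chromosome 13 (14.2%, 95% Wilson interval 10.3 to 19.3%) and 27 of chromosome 18 (21.4%, 15.2 to 29.4%). Over both it was 60 peaks (16.8%, 13.2 to 21.0%), against 15.1% on the other autosomes. On the short arm of chromosome 18 it was 25 of 91 (27.5%, 19.4 to 37.4%), and on the long arm 2 of 35 (5.71%). On chromosome 13, 27 of the raised values equalled whole numbers of control fragments over the summit, with 3 fragments at 18 peaks, 4 at 6 and 5 at 3. The other 6 were set by wider windows of the control. On chromosome 18, 16 were whole numbers and 11 came from windows. At the 54 peaks of the short arm whose background was set by a window, it had a median of 1.46 times the genome-wide level, against 1.17 at 104 such peaks of chromosome 13 and 1.51 at the 4 such peaks of the long arm.

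Very high backgrounds, 5 times the genome-wide level or more, were found at 0 of the 232 peaks of chromosome 13 and 3 of the 126 of chromosome 18, against 1.41% on the other autosomes, of which chromosome 15 also had 0. The peak at 108232 to 108459 had 170 fragments over its summit and a background of 37.4 times the genome-wide level, so that its fold enrichment was 1.56. The peak at 10098 to 10512, the first of the chromosome, had 6.39 times. The peak at 18518394 to 18518804, next to the centromere, had 7.30 times. Leaving out all peaks with a raised background kept the contrast between the arms, with 66 peaks (4.81 per Mb) on the short arm against 33 (0.586 per Mb) on the long arm and a ratio of 8.21 (5.33 to 12.9). The part of the control signal in the remaining contrast was not tested.

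Peak numbers were finally set beside the number of protein-coding genes that RefSeq places on each chromosome. These were 338 for chromosome 13 and 270 for chromosome 18, the fewest of the 22 autosomes after chromosome 21 (239). Chromosome 13 had 68.6 peaks per 100 genes (95% Poisson interval 60.1 to 78.1), near the median of 69.6 of the other autosomes. Chromosome 18 had 46.7 (38.9 to 55.6). Only chromosome 19, with 32.0 (29.1 to 35.0), had fewer, and the interval of chromosome 18 overlapped those of chromosomes 11, 15, 16 and 21, of which chromosome 21 was nearest at 52.3 (43.5 to 62.3). Relative to genes, the ratio of the pair to the other autosomes was 0.863, where it had been 0.432 relative to length. Chromosome 13 was thus sparse in peaks per Mb but not per gene, whereas chromosome 18 was low on both scales.

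**Figure D5:**
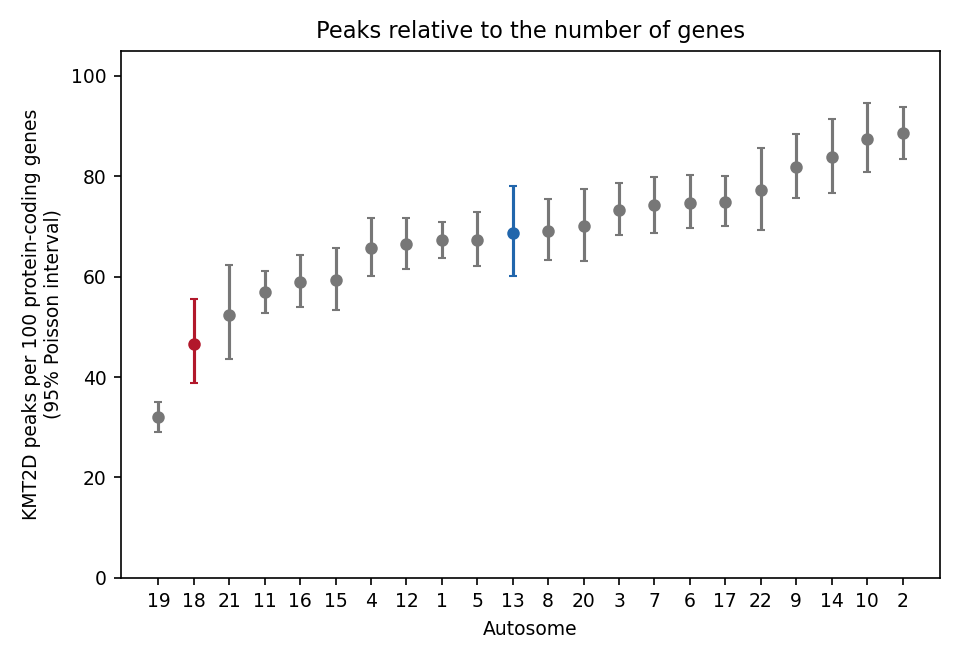
KMT2D peaks per 100 protein-coding genes (y axis, with 95% Poisson intervals as bars) for the 22 autosomes in rising order (x axis). Chromosome 18 is second from the bottom at 46.7, while chromosome 13 lies in the middle at 68.6.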

How the data were processed

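The data were 1 list of KMT2D peaks (KMT2D-WT SCC23 cells). Per the authors, reads were aligned by Bowtie2 to hg19 (GRCh37), and MACS2 called peaks from uniquely mapped ones at a p-value threshold. The control is not named. No p-value exceeded 0.00984. Total depth was not analysed here. The deposited fold enrichment is a ratio of scaled ChIP signal to local background, each with a pseudocount of 1. Significance was deposited as −log10 values, one for the p-value and one for the q-value. The deposited score was 10 times the −log10 p without its decimals in 100% of peaks.

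ChIP fragments and local background at each summit were rebuilt from fold enrichment and p-value under the MACS2 formulas, with a fitted scale (0.381) and genome-wide background (1.10 scaled fragments). A background within 0.0003 scaled fragments of the genome-wide level or of a whole number was called equal to it. Rebuilt and deposited −log10 p differed by at most 0.000900. A single fragment number met the tolerance of 0.001 at 13763 of 13808 peaks, several did at 1 peak of chromosomes 13 and 18, and none was without one. In tests on 3 simulated lists of 8287 peaks or more, the exact number was recovered for 100% of peaks, and the background within 2 percent. The simulated lists were made with the same formulas and did not reach the highest backgrounds and fragment numbers reported here. They therefore do not test the rebuilding at those peaks. Whether backgrounds were rightly called genome-wide, whole or set by a window was not tested on them.

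Bins of 5 Mb started at position 1, and bins beyond the outermost peaks were left out. Named positions were, per chromosome, the 10 peaks of highest fold enrichment, the 3 fullest bins, the 5 longest stretches without a peak and the 3 fullest clusters. The chromosomes, lists and rules were chosen with earlier results of these data known. Coordinates are GRCh37, counted from 1. The annotation at hand was GRCh38, and 13 of 23 chromosomes, chromosome 13 among them, had peaks past the end of the GRCh38 sequence, so no gene was joined to a peak and listed genes of both chromosomes were not analysed here. Gene numbers per chromosome are from RefSeq (GRCh38.p14). Python 3.11.15, numpy 2.4.6, pandas 2.3.3, scipy 1.17.1 and matplotlib 3.10.9 were used.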

Additional observations from a re-analysis of the deposited data

How the results depend on the processing

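Of 57 alternatives to 9 results, 27 left the value about where it was (within its counting interval, or 1.5 times for a count), 30 moved it and 0 reversed it; 6 of them, on the arms of chromosome 18 and on genes, were chosen after seeing the data. For the share of the span without peaks, which has no interval, a move of more than 0.5 times the difference between the chromosomes was counted. Density of chromosomes 13 and 18 was 1.43 and 0.976 peaks per Mb for q-values up to 0.05, 1.11 and 0.749 up to 0.01, 1.28 and 0.802 for peaks above the list's median fold enrichment, and 2.08 and 1.32 without raised backgrounds, since fewer peaks were counted. It was 6.63 and 0.622 for the short and long arm of chromosome 18. The density ratio of 0.432 was 0.498 for chromosome 13 alone, 0.347 for chromosome 18 alone, 0.607 without the long arm and 0.863 per protein-coding gene. It stayed within its interval under stricter q-values, without raised backgrounds and with near peaks merged. Bins with at most 1 peak went from 7 to 12 for q-values up to 0.05 and to 13 above the median fold enrichment, and were 3 and 4 on chromosomes 13 and 18. The share of the span without peaks (76.4%) was 62.8% for stretches of at least 2 Mb, 85.9% for 0.5 Mb, 82.7% for q-values up to 0.05 and 82.6% on chromosome 18. The share with a raised background (16.8%) was 37.4% at 1.5 times, 5.31% at 3 times, 21.4% on chromosome 18 and 13.1% without its short arm. Median fold enrichment was 5.03 for q-values up to 0.05, 45.3% of peaks passed a q-value of 0.01, and 15.1% and 37.2% lay in clusters with gaps of up to 5 and 25 kb. The library is 1 of its kind, so error between replicates could not be measured and is not covered by any interval given here. No paired analysis was possible because only 1 sample was analysed.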
